A study of Mus musculus with 10 samples.

Results

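Genes that glucocorticoids are known to induce were examined in the medial habenula of mice in nicotine withdrawal. The set was a list of 34 gene symbols, and a gene was kept where its mean over the 10 libraries reached at least 0.5 FPKM, the deposited read density per gene length. This kept 33 of the 34, out of 17425 genes that met the same rule and 56691 genes in the deposited table. Angptl4, at a mean of 0.663 FPKM, was the member nearest the limit, and Lcn2, at 0.251 FPKM, was the listed gene that fell under it. Nicotine withdrawal mice (n = 6) were wild type and received intraperitoneal nicotine ditartrate at 4 mg/kg, 2 injections a day for 14 days, then saline from day 15. Control mice (n = 4) were wild type and received saline over the same 17 days. Tissue was taken on day 17 in both groups, and each library came from 1 mouse. The source label names cholinergic neurons isolated by flow sorting, whereas the series record names habenula tissue and describes no sort. No sex, litter, batch, housing or injection handling is given in the labels, and no hormone measurement was used here.

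The glucocorticoid receptor is a transcription factor that stays in the cytosol with its chaperones until corticosterone, the main stress hormone of mice, binds it. It then enters the nucleus and, as a dimer, binds paired short DNA elements near genes such as Sgk1, Tsc22d3 and Zbtb16. Many of the induced genes restrain inflammation, shift cells towards the use of stored fuel or feed back on insulin and growth factor signalling. In brain the same genes respond to stress and follow the daily corticosterone rhythm, and glial cells, vessels and neurons can all express them.

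The libraries held between 15023448 and 22026333 counts. Withdrawal 2 and control 2 stood apart from the other 8 libraries in tissue markers. Chat, the acetylcholine-synthesising enzyme, was at 0.199 CPM in withdrawal 2 and at 26.6 to 40.9 CPM in the other 5 withdrawal libraries, against 0.160 CPM in control 2 and 27.9 to 36.0 CPM in the other 3 controls. CPM values are TMM-scaled counts relative to library size. Chrnb4, a nicotinic receptor subunit of the medial habenula, was at 1.94 CPM in withdrawal 2 and 0.321 CPM in control 2. These 2 libraries therefore went against their tissue label. Glial, vascular and microglial markers were present in all 10 libraries, although the source label names sorted neurons: Gfap (astrocytes) was at 228 to 642 CPM in withdrawal and 449 to 536 CPM in controls, and Mbp (oligodendrocytes) at 2407 to 6077 and 3480 to 4668 CPM. Cldn5 (endothelium) was at 12.5 to 22.1 CPM in withdrawal and 12.8 to 15.8 CPM in controls, and Cx3cr1 (microglia) at 23.8 to 49.7 and 27.5 to 50.8 CPM. Log2 changes and calls of the members are therefore given for all 10 libraries and for the 8 without withdrawal 2 and control 2.

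Glucocorticoid-induced genes were lower in withdrawal than in control habenula as a group. Of the 33 genes, 29 had a mean log2 change below 0 (47.3% of all genes tested did), and the median change was -0.71 against 0.02 over all genes tested. With edgeR's quasi-likelihood test and Benjamini-Hochberg adjustment over all 17425 genes, 4 of the 33 fell at an adjusted p under 0.05, where 0.138% of all genes did: Plekhf1, Sult1a1, Tsc22d3 and Nfkbia. By edgeR 0 members rose at the adjusted threshold, where 0.0287% of all genes did. At an unadjusted p under 0.05, 19 of the 33 were lower (8.57% of all genes) and 0 were higher (6.32%). DESeq2 called 17 lower (1.43% of all genes), the 4 edgeR calls among them, and 0 higher (0.918%), and limma on log2(FPKM + 1) called 1 lower (0.0803% of all genes) and 0 higher (0.00574%). In 11 of the 33, every withdrawal library lay below every control, which held for 1.57% of all genes, and in 0 every withdrawal library lay above (1.7%).

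Without withdrawal 2 and control 2, 24 of the 33 fell (edgeR adjusted p under 0.05), where 6.77% of all genes did, and 1 rose, Ndrg2, where 5.38% of all genes did. The 24 included the 4 called in all 10 libraries and the 17 called by DESeq2. The median change was then -0.81, against 0.01 over all genes tested, and 26 of the 33 had every withdrawal library below every control, against 11.1% of all genes, with 0 above (10.8%). Leaving out withdrawal 2 alone gave 18 lower calls (3.04% of all genes), and leaving out control 2 alone gave 4 (0.149%). Leaving out any of the other 8 libraries gave 0 edgeR calls among the members: Plekhf1, Sult1a1, Tsc22d3 and Nfkbia then had adjusted p between 0.0573 and 0.154, and in each of these 8 fits 19 members were lower at an unadjusted p under 0.05.

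**Figure D1:**
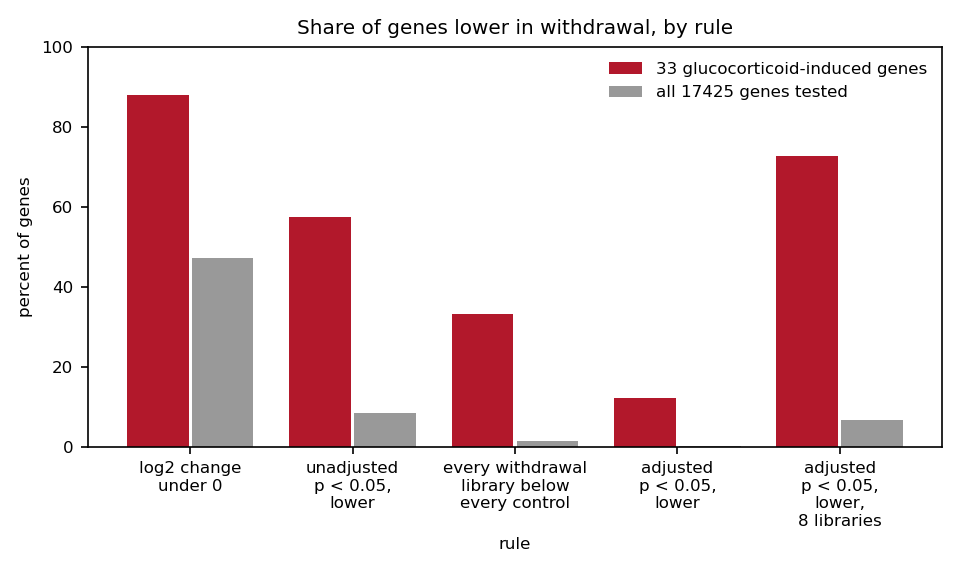
Percent of the 33 glucocorticoid-induced genes (red) and of all 17425 genes tested (grey) that were lower in withdrawal under 5 rules, in all 10 libraries except in the last pair, which uses 8. The members exceeded the background under each rule, from 87.9% against 47.3% for a change below 0 to 12.1% against 0.138% for an adjusted p under 0.05.

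Because these are bulk libraries, fewer cells of a type and less RNA per cell cannot be told apart. Cell markers also moved between the groups. In the 8 libraries, summed hippocampal and cortical neuron markers were at 136 to 175 CPM in withdrawal and 258 to 552 CPM in controls, with 7 of 8 markers lower on average and 5 called lower. Neurod6, which defines that list, was at 1.07 to 1.98 CPM in these withdrawal libraries and 3.22 to 56.5 CPM in these controls, and at 35.6 CPM in withdrawal 2 and 335.5 CPM in control 2. Summed oligodendrocyte markers were at 6121 to 10510 CPM in withdrawal and 11550 to 12840 CPM in controls, with 6 of 8 called lower. Astrocyte markers were at 2834 to 3287 and 3531 to 4010 CPM (2 of 8 called lower), precursor markers at 212 to 245 and 295 to 309 CPM (4 of 7) and meningeal markers at 39.7 to 146 and 188 to 237 CPM (3 of 6). Choroid plexus markers were at 109 to 9737 CPM in withdrawal and 7381 to 10350 CPM in controls, with 6 of 6 lower on average, a median log2 change of -1.11 and 0 called. Thalamic markers went the other way, at 930 to 1466 CPM in withdrawal and 548 to 857 CPM in controls (4 of 7 called higher), as did lateral habenula markers, at 920 to 1016 and 672 to 880.1 CPM (1 of 5 called higher). Of the GABAergic, microglial, vascular, ependymal and blood markers, 1 was called lower, a GABAergic one. Medial habenula markers were at 684.6 to 1053 CPM in withdrawal and 749.3 to 1048 CPM in controls, with 0 of 10 called (0 at an unadjusted p under 0.05 in all 10 libraries). The part of these differences in the gene values below was not tested.

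**Figure D2:**
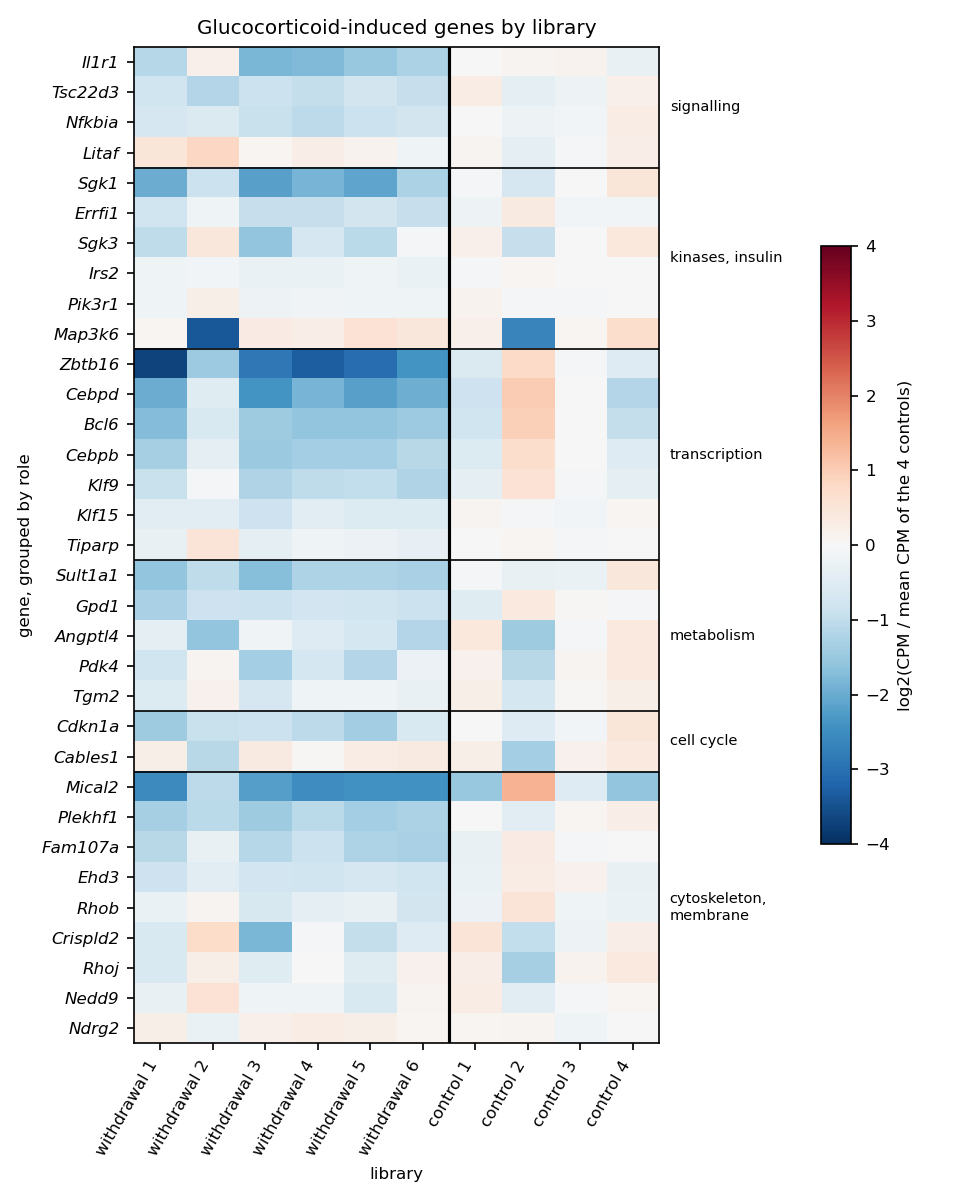
Log2 ratio of each gene's CPM in each library to the mean of the 4 controls, with genes grouped by role and withdrawal libraries to the left of controls. Blue cells, below the control mean, fill most of the withdrawal columns, and withdrawal 2 and control 2 depart from their groups.

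The members with roles in signalling and inflammation were Tsc22d3, Nfkbia, Il1r1 and Litaf, and 2 of these 4 fell in all 10 libraries. Tsc22d3 encodes GILZ, a leucine zipper protein that mediates many anti-inflammatory effects of glucocorticoids. It was at 48.9, 59.8 and 66.05 CPM in withdrawal (lowest, median, highest), against 136, 84.2, 96.2 and 128 CPM in controls 1 to 4. Every withdrawal library lay below every control, and the lowest values of the withdrawal and control groups were those of withdrawal 2 and control 2. The mean was 59.4 ± 6.08 CPM in withdrawal (SD, n = 6) and 111 ± 24.7 CPM in controls (SD, n = 4). On the log2 scale it changed by -0.90 (SE 0.139) with an edgeR adjusted p of 0.0444, and by -0.96 in the 8 libraries (adjusted p = 0.00100).

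Nfkbia encodes IκBα, the inhibitor that holds NF-κB in the cytosol. It was at 11.9, 14.1 and 16.6 CPM in withdrawal, against 24.1, 21.5, 22.6 and 30.2 CPM in controls. The groups did not overlap, and the 2 values nearest each other were those of withdrawal 2 and control 2. Nfkbia changed by -0.79 on the log2 scale (SE 0.124, adjusted p = 0.0444), and -0.90 in the 8 libraries (adjusted p = 0.00243). Il1r1, the receptor for interleukin-1, was at 5.90, 8.03 and 24.4 CPM in withdrawal, against 21.2, 22.8, 23.5 and 17.1 CPM in controls. Only withdrawal 2 reached the control range, and the log2 change was -1.03 in 10 libraries (edgeR adjusted p = 0.281) and -1.45 in 8 (adjusted p = 0.00182). Litaf, which encodes an endosomal membrane protein, did not pass, with a log2 difference of 0.31 in 10 libraries (adjusted p = 0.460) and 0.07 in 8 (adjusted p = 0.782).

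Among the members acting in kinase and insulin signalling (Sgk1, Sgk3, Irs2, Pik3r1, Errfi1 and Map3k6), 0 of 6 passed the adjusted threshold in 10 libraries by edgeR, 3 had an unadjusted p under 0.05 and a lower level, and DESeq2 called 3 lower. In 8 libraries edgeR called 5 lower. Sgk1, a kinase regulating ion channels and transporters and among the best known glucocorticoid targets in brain, was at 51.2, 61.0 and 128 CPM in withdrawal, against 223, 145, 229.6 and 326 CPM in controls. The groups did not overlap, but withdrawal 2 (128 CPM) and control 2 (145 CPM) lay close to each other. Its control mean was 3.08 times its withdrawal mean. Sgk1, Sgk3 and Pdk4 ranked the 6 withdrawal libraries in the same order as the summed choroid plexus markers did, from withdrawal 2, 6 and 4 to 1, 5 and 3, and all had their lowest control value in control 2, as those markers did. The order did not extend across the groups for Sgk1 and Pdk4. Withdrawal 2 had a higher choroid plexus sum (13260 CPM) than any control (80.6 to 10350 CPM). There Sgk1 was below every control, Pdk4 within the control range and Sgk3 above every control. The cause of these orders was not tested. The log2 change of Sgk1 was -1.62 (SE 0.298, adjusted p = 0.0959) in 10 libraries and -2.02 (SE 0.195, adjusted p = 6.39e-04) in 8.

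Promoter sequences show where receptor-like elements lie close to start sites of these genes. The windows ran from 250 bases before to 50 after a start site, in RefSeq entries on GRCm38.p6. Entries were used for 26 of the 33 genes, and the others were Sgk3, Zbtb16, Cebpd, Gpd1, Angptl4, Tgm2 and Cables1. The full palindrome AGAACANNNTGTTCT, searched on both strands, was in the promoters of 0.0111% of all genes in the table and of 1 member, Sgk1, in 1 of its 6 entries. The shorter palindrome GNACANNNTGTNC, which also matches every instance of the first, was in 0.537% of genes and in 3 of 26 members. The NF-κB motif GGGAATTTCC, searched on both strands, was in 0.107% of genes and in 1 member, Nfkbia, which NF-κB itself is known to induce. Fam107a and Map3k6 held the shorter palindrome without the full one. The motifs were chosen after the promoters had been seen, so these shares are no independent support. The stretches around these matches are shown for members that fell in 8 libraries (Sgk1, Fam107a, Nfkbia) and for a member that did not pass (Map3k6). Capitals mark the match, and each is written 5′ to 3′ on the gene's strand.
Sgk1, chr10:21993661-21993755, plus strand, match beginning 189 bases before the start site: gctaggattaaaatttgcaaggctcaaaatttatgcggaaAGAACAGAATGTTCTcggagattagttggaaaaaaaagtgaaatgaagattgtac
Fam107a, chr14:8309845-8309937, minus strand, 118 bases before: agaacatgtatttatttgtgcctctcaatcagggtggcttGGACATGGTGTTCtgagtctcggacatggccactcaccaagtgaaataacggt
Map3k6, chr4:133240597-133240689, plus strand, 181 bases before: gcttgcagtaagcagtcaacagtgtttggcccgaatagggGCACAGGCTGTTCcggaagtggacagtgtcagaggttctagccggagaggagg
Nfkbia, chr12:55492648-55492716, minus strand, 29 bases before: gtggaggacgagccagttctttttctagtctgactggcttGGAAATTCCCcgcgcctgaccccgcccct

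Other motifs were searched in the same windows. A single AGAACA, on either strand, was in 6 of 26 members (Bcl6, Fam107a, Il1r1, Sgk1, Sult1a1 and Tsc22d3) and in 21.3% of all genes. The E-box CACGTG was in 6 of 26 (Bcl6, Crispld2, Irs2, Klf15, Mical2 and Sgk1) and in 8.09% of genes. The forkhead motif GTAAACA was in Klf9 and Ndrg2 and in 4.05% of genes, and the cyclic AMP motif TGACGTCA was in Errfi1 and in 2.03% of genes. A match is a description of letters in these windows, and regulatory elements farther away were not searched.

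Errfi1, an inhibitor of the EGF receptor, was at 27.5, 28.9 and 46.0 CPM in withdrawal, against 45.2, 66.7, 48.0 and 48.9 CPM in controls. Withdrawal 2 was above control 1, and the other 5 withdrawal libraries were below every control. Between the groups Errfi1 differed by a log2 value of -0.72 (SE 0.168, adjusted p = 0.194) and -0.71 in 8 libraries (adjusted p = 6.39e-04). Irs2, an adaptor of the insulin receptor, differed little but without overlap, at 82.3 to 91.9 CPM in withdrawal and 96.6 to 106 CPM in controls (log2 change -0.21, edgeR adjusted p = 0.250, and -0.20 with adjusted p = 0.0376 in 8 libraries). Sgk3, a kinase related to Sgk1, had a log2 change of -0.50 in 10 libraries and fell by 1.02 in 8 (edgeR adjusted p = 0.0340). Pik3r1, the regulatory subunit of phosphoinositide 3-kinase, had -0.10 in 10 libraries and fell by 0.20 in 8 (adjusted p = 0.0418). Map3k6, a stress-activated kinase, was at 2.99 CPM in withdrawal 2 and 33.0 to 47.2 CPM in the other withdrawal libraries, against 5.08 CPM in control 2 and 33.6 to 51.7 CPM in the other controls. Map3k6 thus divided the same 2 libraries from the rest as Chat did, and its log2 change was 0.10 (SE 0.681) in 10 libraries and -0.01 in 8 (adjusted p = 0.964).

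The transcription factors and regulators (Zbtb16, Klf9, Klf15, Cebpb, Cebpd, Bcl6 and Tiparp) all had a lower mean in withdrawal, and their median change was -1.10 on the log2 scale. By edgeR 0 of 7 passed the adjusted threshold in 10 libraries, 6 had an unadjusted p under 0.05, DESeq2 called 5 lower, and edgeR called 7 of 7 lower in 8 libraries. Zbtb16 encodes PLZF, a zinc finger repressor strongly induced by glucocorticoids in many tissues. It was at 6.06, 10.2 and 28.8 CPM in withdrawal, against 53.3, 134, 74.5 and 55.1 CPM in controls. Its groups were far apart, since the highest withdrawal library, withdrawal 2, was well below the lowest control. By the fitted log2 change, the control level was 6.05 times the withdrawal level, the most of any member. The log2 change was -2.60 (SE 0.435, adjusted p = 0.0677) and -2.62 in 8 libraries (SE 0.229, adjusted p = 4.42e-04).

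Klf9, a Krüppel-like factor that mediates corticosterone effects in neurons, was at 131.5, 152 and 295 CPM in withdrawal, against 238, 457, 294 and 234 CPM in controls. Withdrawal 2 lay within the control range, and the other 5 did not. Klf9 had a log2 change of -0.83 (SE 0.266, adjusted p = 0.264) and -0.80 in 8 libraries (adjusted p = 0.00216). Klf15, a relative that regulates amino acid and glucose metabolism in liver and muscle, was at 19.8, 24.9 and 26.3 CPM in withdrawal, against 37.8, 33.8, 32.5 and 36.8 CPM in controls. Klf15 was among the most even members: the groups did not overlap, and withdrawal 2 and control 2 lay inside the ranges of their groups. Its log2 change was -0.54 (SE 0.0911, adjusted p = 0.0677) and -0.58 in 8 libraries (adjusted p = 0.00681).

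Cebpb and Cebpd encode C/EBP transcription factors of stress and acute phase responses. Cebpb was at 4.00, 4.48 and 8.87 CPM in withdrawal, against 7.74, 18.5, 11.1 and 7.85 CPM in controls. Cebpd was at 1.85, 2.47 and 6.93 CPM in withdrawal, against 5.51, 19.6, 9.55 and 4.30 CPM in controls. In both genes withdrawal 2 alone reached the controls and control 2 was the highest library. On the log2 scale the change was -1.10 for Cebpb (SE 0.301, adjusted p = 0.248) and -1.65 for Cebpd (SE 0.485, adjusted p = 0.261). In 8 libraries both fell, by 0.98 (adjusted p = 0.00649) and 1.47 (adjusted p = 0.00829). Bcl6, a repressor best known from germinal centre B cells, was at 15.2, 17.6 and 33.0 CPM in withdrawal, against 28.9, 96.8, 50.2 and 25.9 CPM in controls. Bcl6 followed the C/EBP genes in its extreme libraries, with a log2 change of -1.35 (SE 0.368, adjusted p = 0.248) and -1.03 in 8 libraries (adjusted p = 0.0106). Tiparp, an ADP-ribosyltransferase of the aryl hydrocarbon receptor pathway, had a log2 change of -0.12 in 10 libraries and fell by 0.26 in 8 (adjusted p = 0.0352). Klf9, Cebpd and Bcl6 ranked controls 2, 3, 1 and 4, from high to low, as the summed hippocampal and cortical markers did (1885, 552, 305 and 258 CPM). Zbtb16, Klf15, Cebpb and Tiparp did not keep this order, and its cause was not tested.

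**Figure D3:**
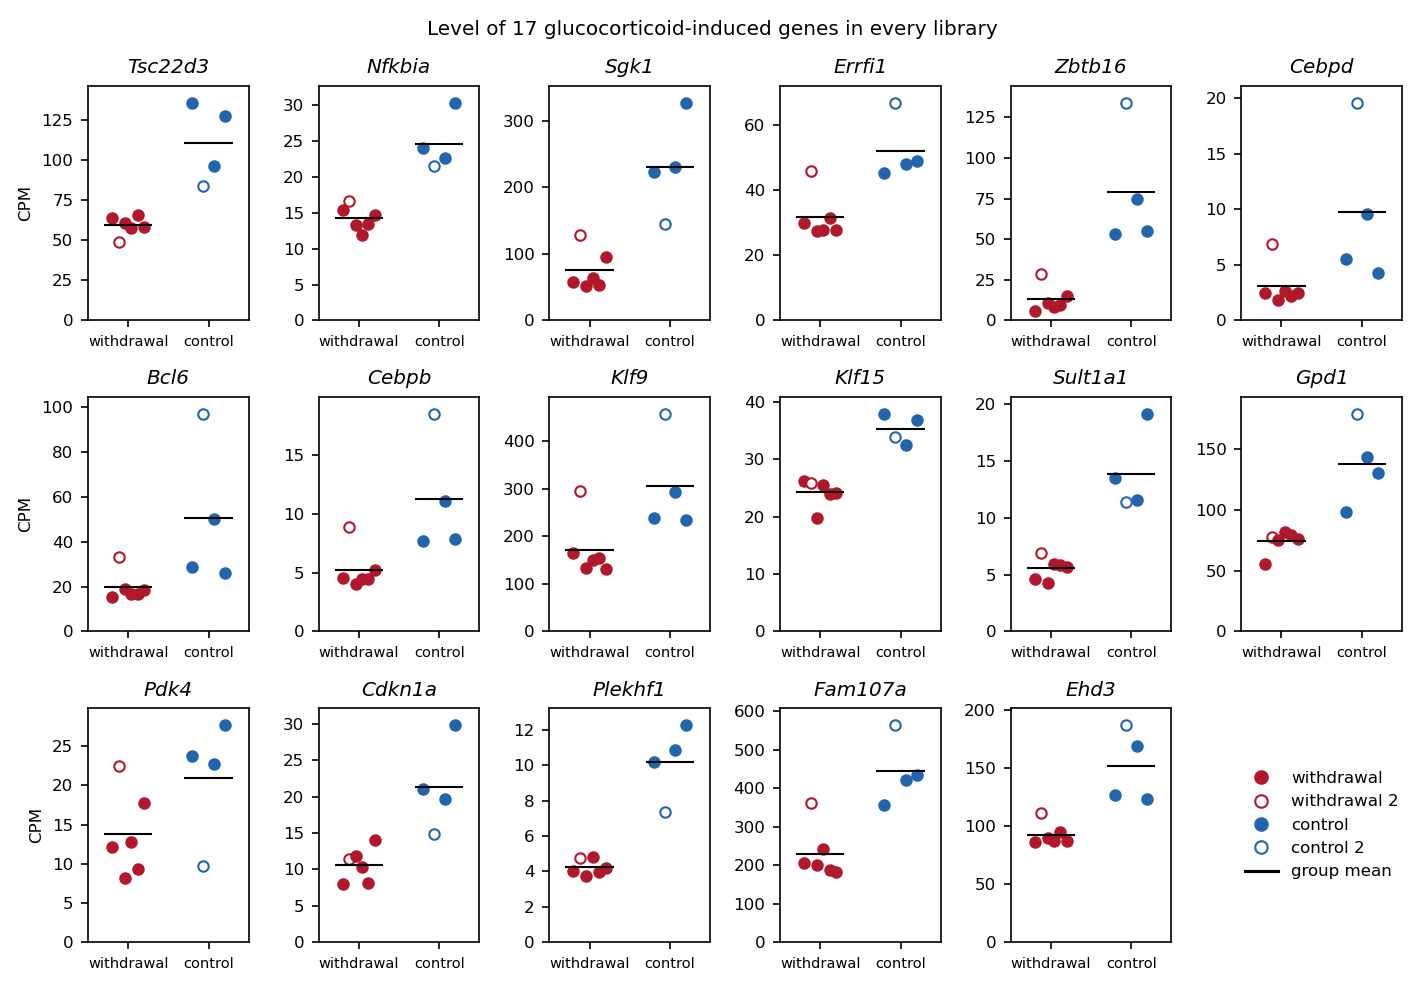
CPM of 17 members in each library, with withdrawal (red) to the left of control (blue), open circles for withdrawal 2 and control 2, and a line at each group mean. The groups are apart in 10 of the 17 panels, and in most of the others the open red circle is the withdrawal library that reaches the controls.

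The 5 metabolic members all had a lower mean in withdrawal, 1 fell in 10 libraries and 4 fell in 8. Sult1a1, a sulfotransferase of phenols and catecholamines, was at 4.30, 5.79 and 6.88 CPM in withdrawal, against 13.5, 11.4, 11.6 and 19.1 CPM in controls. The groups did not overlap, and withdrawal 2 was the highest of its group and control 2 the lowest of its own. Sult1a1 changed by -1.32 on the log2 scale (SE 0.183, adjusted p = 0.0329) and -1.48 in 8 libraries (adjusted p = 0.00176). Gpd1, the glycerol-3-phosphate dehydrogenase that oligodendrocytes express in response to glucocorticoids, was at 55.4, 76.4 and 81.6 CPM in withdrawal, against 98.0, 178, 143 and 130.3 CPM in controls. Its groups were apart too, with a log2 change of -0.89 (SE 0.157, adjusted p = 0.0792) and -0.76 in 8 libraries (adjusted p = 0.00984). In the 8 libraries the summed oligodendrocyte markers were lower in withdrawal too, as given above. The 2 left-out libraries did not keep this parallel. Withdrawal 2 had the highest oligodendrocyte sum of all libraries (15160 CPM), with Gpd1 at 77.3 CPM. Control 2 had the lowest control sum (8765 CPM) and the highest Gpd1. A link between the markers and Gpd1 was not tested.

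Pdk4, a kinase that inhibits pyruvate dehydrogenase and so spares glucose, was at 8.15, 12.5 and 22.4 CPM in withdrawal, against 23.7, 9.78, 22.8 and 27.7 CPM in controls. The groups overlapped, with withdrawal 2 the highest of its group and control 2 the lowest of its own. The log2 change was -0.60 (SE 0.335, adjusted p = 0.405) in 10 libraries and -1.04 in 8 (adjusted p = 0.0138). Tgm2, a transglutaminase, had a log2 change of -0.25 in 10 libraries and fell by 0.53 in 8 (edgeR adjusted p = 0.0264). Angptl4, a secreted inhibitor of lipoprotein lipase, had -0.67 in 10 libraries (adjusted p = 0.409) and -0.81 in 8 (adjusted p = 0.0535), at 0.997 to 2.75 CPM in withdrawal and 1.12 to 4.00 CPM in controls.

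Of the 2 cell cycle members, Cdkn1a, which encodes the cyclin-dependent kinase inhibitor p21, was at 7.96, 10.9 and 14.1 CPM in withdrawal, against 21.0, 14.8, 19.6 and 29.8 CPM in controls. Every withdrawal library was below every control, by a narrow margin to control 2. The size of the difference was -1.001 on the log2 scale (SE 0.214, adjusted p = 0.158) and -1.17 in 8 libraries (adjusted p = 0.00768). Cables1, a linker of cyclin-dependent kinases, was at 14.4 CPM in withdrawal 2 and 12.2 CPM in control 2 and at 32.0 to 40.6 CPM in the other 8 libraries, a split by library and not by group (log2 change 0.11 in 10 libraries, edgeR adjusted p = 0.902, and -0.0045 in 8).

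Among the 9 members linked to the cytoskeleton, membranes or the extracellular space, 1 fell in 10 libraries, and in 8 libraries 4 fell and 1 rose. Plekhf1, a PH and FYVE domain protein of endosomes and lysosomes, was at 3.75, 4.13 and 4.80 CPM in withdrawal, against 10.2, 7.37, 10.8 and 12.2 CPM in controls. All 6 withdrawal libraries were close together and below every control. Its mean was 4.26 ± 0.442 CPM in withdrawal (SD, n = 6) and 10.2 ± 2.04 CPM in controls (SD, n = 4). This was a log2 change of -1.25 (SE 0.152) with an edgeR adjusted p of 0.0267, and of -1.42 in 8 libraries (adjusted p = 4.42e-04). Fam107a, an actin-binding stress-response protein enriched in astrocytes and hippocampal neurons, was at 182, 202 and 362 CPM in withdrawal, against 358, 563, 420.5 and 434 CPM in controls. Withdrawal 2 lay just above control 1 and the other 5 lay below every control. Fam107a differed by -0.95 on the log2 scale (SE 0.205, adjusted p = 0.159) and -0.99 in 8 libraries (adjusted p = 7.25e-04).

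Ehd3, an ATPase of endosomal membrane recycling, was at 86.0, 88.3 and 111 CPM in withdrawal, against 127, 186, 169 and 123 CPM in controls. Its groups were apart, and 5 of the 6 withdrawal libraries lay within 86.0 and 94.6 CPM. The log2 change was -0.71 (SE 0.130, adjusted p = 0.0959) and -0.65 in 8 libraries (adjusted p = 0.00507). Mical2, an actin-oxidising enzyme, was at 49.0, 54.1 and 140.3 CPM in withdrawal, against 102, 755, 203 and 96.4 CPM in controls, the widest control range in CPM of any member. Its extreme value was that of control 2, the library with the most Neurod6. The log2 change was -2.07 (edgeR adjusted p = 0.250) in 10 libraries and -1.30 in 8 (adjusted p = 0.00697).

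Ndrg2, an astrocyte-enriched stress-responsive gene and the most abundant member, went the other way. It was at 484, 677 and 712 CPM in withdrawal, against 612, 624, 517 and 569.5 CPM in controls. The groups overlapped in both sets of libraries, and the log2 change was 0.14 in 10 libraries (edgeR adjusted p = 0.558) and 0.25 in 8 (SE 0.0709, adjusted p = 0.0491). The summed astrocyte markers were lower in withdrawal in these 8 libraries, as given above. Rhob and Rhoj, small GTPases, had log2 changes of -0.34 and -0.15, Crispld2, a secreted protein, -0.33, and Nedd9, a focal adhesion scaffold, -0.05, with edgeR adjusted p between 0.424 and 0.927. These 4 did not pass in 8 libraries either, where their changes were -0.23, -0.52, -0.92 and -0.33.

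**Figure D4:**
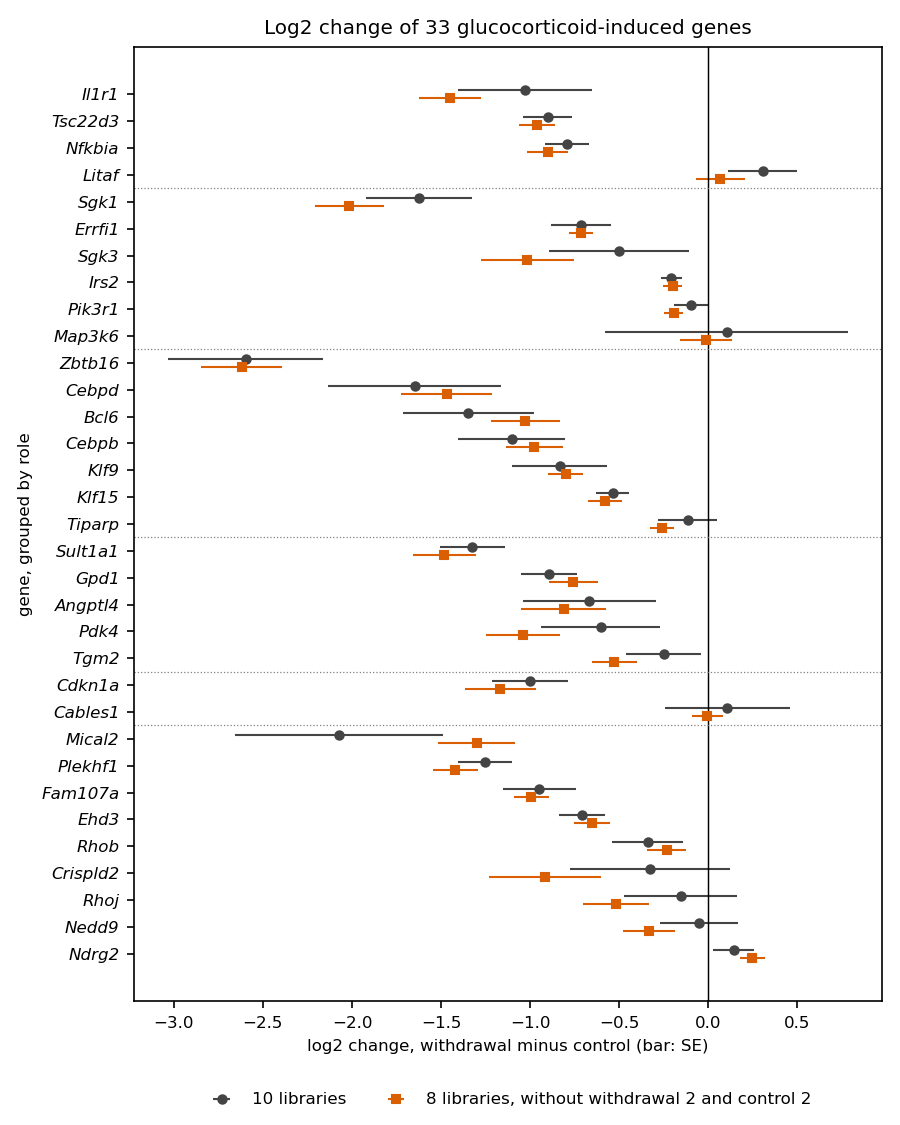
Log2 change (withdrawal minus control) with its SE for the 33 members by role, in all 10 libraries (dark circles) and in 8 libraries without withdrawal 2 and control 2 (orange squares). Most points are left of 0, the 8-library bars are shorter for most genes, and Litaf, Ndrg2, Map3k6 and Cables1 lie at or right of 0.

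Across libraries, the median member was below the control mean in each withdrawal mouse, and least so in withdrawal 2. The median log2 ratio of the 33 members to the control mean was -0.79, -0.35, -0.87, -0.75, -0.79 and -0.74 in withdrawal 1 to 6, against -0.02, -0.07, -0.04 and 0.06 in controls 1 to 4. In withdrawal 2, 22 of the 33 were below the control mean, and 28 or 29 were in each of the other 5. In controls 1 to 4 the numbers were 17, 18, 24 and 15, so by this count withdrawal 2 did not exceed control 3. Withdrawal 2 was the highest of its group in 24 of 33 members and the lowest in 5. Control 2 was the highest control in 14 members and the lowest in 17. It was highest in 6 and lowest in 0 of the 7 transcription factors and regulators, highest in 1 and lowest in 4 of the 5 metabolic genes, highest in 2 and lowest in 4 of the 6 kinase and insulin genes, and highest in 5 and lowest in 4 of the 9 cytoskeletal and membrane genes. In the 4 signalling genes it was lowest in 3 and highest in 0, and in the 2 cell cycle genes it was lowest in both.

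Per gene length, the members spanned a wide range of levels, and genes of high and low level were both among those called. Ndrg2 had the highest mean over the 10 libraries, 181 FPKM, followed by Rhob at 88.6, Fam107a at 80.1, Klf9 at 45.7, Gpd1 at 33.0, Sgk1 at 27.9 and Tsc22d3 at 18.4 FPKM. Among these 7, Fam107a, Klf9, Gpd1, Sgk1 and Tsc22d3 fell in 8 libraries, Rhob did not pass and Ndrg2 rose. At the low end, Plekhf1 at 1.25 FPKM was called in both sets of libraries, and Crispld2 at 1.21, Rhoj at 1.18 and Angptl4 at 0.663 FPKM in neither. Lcn2, the listed gene under the limit, had 6 to 24 counts in withdrawal and 6 to 11 in controls and was not tested.

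Other genes of the pathway, from lists outside the 33, included further glucocorticoid-induced genes, of which 15 of 17 were tested. By edgeR 8 of the 15 fell in 10 libraries (0.138% of all genes) and 12 fell in 8 libraries (6.77%). In either set 0 rose (0.0287% and 5.38% of all genes). At an unadjusted p under 0.05 and by DESeq2, 0 rose in 10 libraries (6.32% and 0.918%). This list was chosen with earlier results of these data known, so its calls are no independent support. The 6 with the smallest p were the metallothionein Mt2 (log2 change -1.11, adjusted p = 0.00528), the hypoxia-inducible factor subunit Hif3a (-2.11, 0.00717), the mTOR inhibitor Ddit4 (-1.03, 0.0312), Mt1 (-0.70, 0.0329), the phagocytic receptor Mertk (-1.21, 0.0444) and the receptor co-chaperone Fkbp5 (-1.68, 0.0444). In 8 libraries all 6 fell too, with log2 changes of -1.17 for Mt2, -2.03 for Hif3a, -1.10 for Ddit4, -0.77 for Mt1, -1.12 for Mertk and -1.66 for Fkbp5. Mt1 and Mt2 are related metallothionein genes, and the handling of reads that match both was not checked. Leaving out any of the 8 libraries other than withdrawal 2 and control 2 gave 2 calls in this list.

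The receptors and their cofactors gave 0 edgeR calls in 10 libraries, where 0.138% of all genes fell and 0.0287% rose, and 5 in 8. Nr3c1, the glucocorticoid receptor, was at 94.2 to 111 CPM in withdrawal and 83.6 to 131 CPM in controls, with a log2 change of 0.07 (SE 0.120, adjusted p = 0.814), and of 0.20 in 8 libraries (adjusted p = 0.114). Nr3c2, the mineralocorticoid receptor, which hippocampal neurons express strongly, was at 24.2 to 33.7 CPM in 5 withdrawal libraries and 176 CPM in withdrawal 2, against 73.1, 393, 133 and 60.7 CPM in controls. Control 2 had the most Nr3c2, and the log2 change was -1.68 (SE 0.740, adjusted p = 0.328) in 10 libraries and -1.74 in 8 (adjusted p = 0.00243). In the list of 15 receptor, chaperone and cofactor genes, 0 passed by edgeR, DESeq2 or limma in 10 libraries. At an unadjusted edgeR p under 0.05, 3 were lower (8.57% of all genes), among them the coactivator Ncoa1 (-0.58, adjusted p = 0.296). In 8 libraries 5 of the 15 fell, where 6.77% of all genes did, Ncoa1 among them (-0.40, adjusted p = 0.00703).

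Pathways that interact with the receptor gave 0 edgeR calls in 10 libraries, where 0.138% of all genes fell and 0.0287% rose. At shares this low, 0 calls in such short lists says little. At an unadjusted edgeR p under 0.05, 8.57% of all genes were lower and 6.32% higher, and 47.3% had a log2 change below 0. DESeq2 called 1.43% of all genes lower and 0.918% higher. In 8 libraries 6.77% of all genes fell and 5.38% rose by edgeR. Of 7 tested glucocorticoid-repressed genes, 0 passed by edgeR or limma, DESeq2 called 1 higher, and 3 had an unadjusted p under 0.05, among them the chemokine Ccl2 (2.35, adjusted p = 0.254) and the prostaglandin synthase Ptgs2 (-1.89, adjusted p = 0.280). In 8 libraries 1 of the 7 fell, Ptgs2 (-2.52, adjusted p = 0.00829), and Ccl2 did not pass (2.43, adjusted p = 0.0707). Of 7 tested NF-κB target genes, which Nfkbia restrains, 0 passed by edgeR, DESeq2 or limma and 0 had an unadjusted p under 0.05. The smallest p belonged to Nfkb2 (0.21, adjusted p = 0.588) and Relb (-0.33, adjusted p = 0.653), and in 8 libraries edgeR called 0 of the 7. Of 13 FOXO and insulin pathway genes, 0 passed by edgeR or limma, DESeq2 called 2 lower and 5 had an unadjusted p under 0.05. Foxo3 (-0.41, adjusted p = 0.172) and Foxo1 (-0.54, adjusted p = 0.250) had the smallest p, and both had every withdrawal library below every control (1.57% of all genes). Sesn3 went the other way (0.38, edgeR adjusted p = 0.272), with every withdrawal library above every control (1.7% of all genes). In 8 libraries 3 of the 13 fell by edgeR, Foxo3 (-0.30, adjusted p = 0.0109) and Foxo1 (-0.67, adjusted p = 0.00630) among them, and 1 rose, Sesn3 (0.20, adjusted p = 0.0306). Of 14 immediate early genes, 0 passed by edgeR, DESeq2 or limma, 6 had an unadjusted p under 0.05 and 12 had a lower mean, with Nr4a3 at -1.11 (adjusted p = 0.261) and Fosl2 at -1.31 (adjusted p = 0.267), and 4 fell in 8 libraries, Fosl2 among them (-1.51, adjusted p = 0.00365).

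The genes outside all lists whose levels were most like the mean of the standardised members over the 10 libraries were Mxd4 (Pearson r = 0.992), Ankrd13a (0.988), Per3 (0.977), Rtkn (0.974), Fn1 (0.972) and Ccng1 (0.972). These correlations describe 10 libraries that fall into groups, and the libraries share their tissue differences. Among them, Mxd4 averaged 78.4 CPM in withdrawal and 121 CPM in controls (log2 change -0.63, edgeR adjusted p = 0.0444), and Fn1, fibronectin, 36.2 and 71.0 CPM (-0.97, adjusted p = 0.0411). Per3, a clock gene, averaged 51.4 CPM in withdrawal and 69.3 CPM in controls (-0.43, adjusted p = 0.151).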

How the data were processed

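RNA-seq of 10 mouse habenula libraries (6 nicotine withdrawal, 4 control) was analysed from 1 deposited table with a count column and an FPKM column per library. The deposited count columns hold whole numbers, the authors' unnormalised reads for each gene. The FPKM columns, read density by gene length and library size, were computed by the authors and deposited beside them. Both agreed: over 1406 genes the largest relative gap was 0.0013. The submitters' processing notes name HISAT2 2.2.1, HTSeq 0.6.1, cutadapt 1.9.1 and build mm39. Annotation release, strand setting and gene lengths are not given in the sources used here, so reads of overlapping or antisense genes cannot be told apart. Total RNA (TRIzol) entered the libraries, per the labels' protocols.

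Symbols came from GENCODE M21 (52073 of 56691 identifiers). Genes with a mean of at least 0.5 FPKM were tested, and these held at least 99.585% of each library's counts. The main test was edgeR 4.0.16 quasi-likelihood with TMM factors in R 4.3.3, withdrawal minus control, 2-sided, with Benjamini-Hochberg adjustment at 0.05. The SE was the size of the log2 change over the square root of F. Scripts were tested on simulated data of 10 libraries, in which genes varied independently. The simulation had no tissue shifts shared across genes, such as those of withdrawal 2 and control 2. There edgeR recovered 5.97% of the 1.5-fold, 44.8% of the 2-fold and 95.5% of the 4-fold changes, and the rates may differ in the real libraries. A gene that did not pass is therefore not shown to be unchanged. Alternatives were other scalings and filters, a replicate block, limma 3.58.1, DESeq2 1.42.0 and left-out libraries. Full values are given for members past the threshold, then by unadjusted p up to 14, and for 8 textbook targets. Whether replicate numbers pair the libraries was not settled. The members, lists, the 8-library alternative and rules were chosen with earlier results of these data known, and the motifs after the promoters had been seen. The p-values set each group difference against the spread between mice handled as the labels describe. In 10 libraries that spread includes the tissue differences of withdrawal 2 and control 2. Reads without molecular identifiers make the counting precision a lower bound on error.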

Additional observations from a re-analysis of the deposited data

Results flagged for a closer look

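Of 66 groups of values (33 members in 2 groups), 18 held a library farther from the rest than Dixon's 95% criterion allows, where chance gives about 1 in 20, and 16 of the 18 concerned withdrawal 2 or control 2. Their explanations were not tested. Withdrawal 2 was the high one of its group in 11 members: Il1r1 (24.4 CPM, others 5.90 to 9.56), Pik3r1 (162, others 121 to 125), Errfi1 (46.0, others 27.5 to 31.4), Klf9 (295, others 131.5 to 164), Cebpd (6.93, others 1.85 to 2.69), Cebpb (8.87, others 4.00 to 5.23), Bcl6 (33.0, others 15.2 to 18.7), Tiparp (47.1, others 25.1 to 29.3), Fam107a (362, others 182 to 243), Mical2 (140.3, others 49.0 to 63.0) and Ehd3 (111, others 86.0 to 94.6). It was the low one in Map3k6 (2.99 CPM, others 33.0 to 47.2) and Cables1 (14.4, others 32.0 to 40.3). Klf15 was low in withdrawal 3 (19.8 CPM, others 24.0 to 26.3), and Gpd1 in withdrawal 1 (55.4 CPM, others 75.0 to 81.6). Control 2 was the high control in Irs2 (106 CPM, others 96.6 to 97.9), Rhob (344, others 202 to 216) and Mical2 (755, others 96.4 to 203).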

How the results depend on the processing

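The median log2 change of the members stayed between -0.81 and -0.59 under every alternative run (-0.80 to -0.68 with 1 library left out), and the causes of the shifts below were not tested. The count of members that fell (4) was 2 with upper-quartile scaling, 0 with the replicate block, 24 without control 2 and withdrawal 2, 1 with limma on log2(FPKM + 1), 0 with limma on log2(FPKM + 0.1), 17 with DESeq2 and 0 to 18 with 1 library left out. The members that rose (0) numbered 1 without both libraries. Other glucocorticoid-induced genes that fell (8) numbered 0 with the block, 4 with limma on log2(FPKM + 0.1) and 2 to 11 with 1 library left out. All genes called (29) numbered 0 with the block, 2116 without both libraries, 15 and 7 with limma, 410 with DESeq2 and 4 to 814 with 1 library left out. Members without overlap (11) numbered 26 without both libraries and 11 to 22 with 1 left out. Deviations from the group mean in withdrawal and control libraries of the same number had correlations of 0.0238, 0.284, -0.123 and 0.223. These were not set beside libraries of different numbers, so they cannot tell whether the numbers pair the libraries. With the block 19 members and 2124 genes had an unadjusted p under 0.05. The log2 change of Map3k6 (0.10) turned to -0.26 with the block and -0.0136 without both libraries, and ran from -0.25 to 0.44 with 1 left out (below 0 without withdrawal 5 or control 2). That of Cables1 (0.11) turned to -0.0045 without both and ran from -0.16 (without control 2) to 0.26, and that of Nedd9 (-0.05) from -0.22 to 0.043 (above 0 without withdrawal 5 or control 1). Scaling moved the median of all genes by less than 0.1. Lcn2, at 6 to 24 counts a library, was under the FPKM limit of the test.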
